A study of Mus musculus with 22 samples.

Results

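The genes of the T-cell receptor complex and of T cells described here are Cd3d, Cd3e, Cd3g, Cd247, Cd2, Thy1, Lck, Zap70, Lat and Tcf7. These 10 genes, of 17023 in the deposited table, were taken by name for what they are known to do in T cells. They were chosen with earlier results of these data known. The 35 transcripts that GENCODE assigns to them were summed per gene.

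The samples were 22 RNA-seq libraries of TCL1-355-TKO cells, a murine B-cell leukemia line from the transgenic Eμ-TCL1 model of chronic lymphocytic leukemia. All groups share the transgene, an autoreactive B-cell receptor and biallelic inactivating lesions that include CDKN2A and CDKN2B. In the NFKBIE-ko cells, Cas9 ribonucleoprotein had cut exon 2 of Nfkbie, the gene of the NF-κB inhibitor IκBε, and the NFKBIE-wt cells were mock-edited. Each genotype was sampled from the spleen (4 libraries) and the peritoneal cavity (PC, 4 libraries) of C57BL/6 recipients 10 days after intraperitoneal transfer, and from cultures kept for 2 weeks (3 libraries). Cells of each culture came from the spleen of a different mouse and were cultured apart. Spleen and PC libraries of a genotype came from 1 set of recipients and so in part from shared mice, which the labels do not tie to libraries.

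Before the transfer, the cells of each genotype had been passed through 1 mouse, so that all recipients of a genotype share that source. The recovered cells were not purified. The recipients were ordinary C57BL/6 mice with T cells of their own, and each spleen or PC library holds RNA of the leukemia and of host cells together. The edit that defines the groups lies at chr17:45869436-45869455 (GRCm39, plus strand) in the coding part of exon 2 of Nfkbie, and is shown with its PAM in capitals.
Nfkbie cr-RNA site: agtgattcacgaagccccgtCGG

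On T cells, the CD3 γ, δ and ε chains and the ζ chain pair with the antigen receptor and carry its signal into the cell. The kinase LCK phosphorylates these chains, the kinase ZAP70 then docks on them, and ZAP70 phosphorylates the adaptor LAT, on which the downstream complexes assemble. B cells signal through CD79 chains and SYK in place of CD3 and ZAP70, although LCK and ZAP70 are both known from chronic lymphocytic leukemia cells and LCK from peritoneal B cells.

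Values are CPM (counts scaled to library size, with TMM factors), unless given as TPM, which also divides by transcript length. The total estimated count per library lay between 24036763 and 26581304. A gene at 0 in a library may still be present at up to 3 counts, which covers counting error only. A gene was called where edgeR's quasi-likelihood test gave a Benjamini-Hochberg adjusted p below 0.05 over all genes tested and the log2 fold change lay beyond 1 in either direction.

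Nfkbie itself lay between 54.2 and 120.3 CPM in the NFKBIE-ko spleens and between 70.89 and 123.7 in the NFKBIE-wt spleens. It lay between 47.24 and 64.89 CPM in the NFKBIE-ko PC and between 67.3 and 91.22 in the NFKBIE-wt PC. The cultures held 48.16 to 59.88 CPM in NFKBIE-ko and 54.34 to 140.6 CPM in NFKBIE-wt. The transcript was thus present in every library, with groups that overlapped in the spleen and in culture. In culture the overlap came from NFKBIE-wt replicate 3 alone, described next, without which NFKBIE-wt was at 116.8 and 140.6 CPM. A small edit in exon 2 need not remove the transcript, so that its level does not check the labels.

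In 2 libraries the profile went against the label. The library labelled NFKBIE-wt spleen replicate 4 lay closer to the mean of the other NFKBIE-wt cultures than to that of the other NFKBIE-wt spleens (Pearson r of log2 CPM across 13537 genes, with group means that leave out both libraries, 0.986 and 0.934). The library labelled NFKBIE-wt culture replicate 3 lay closer to the NFKBIE-wt spleens than to the other cultures of its group (0.982 and 0.921). Hba-a1, a hemoglobin chain of red cells, had 1 count in that spleen library and 11735 in that culture library. Summed over 7 erythroid genes, that spleen library was at 6.73 CPM and that culture library at 1426 CPM. The other NFKBIE-wt spleens were at 277.7 to 2028 CPM and the NFKBIE-ko spleens at 58.14 to 901.5 CPM. NFKBIE-wt culture replicate 1 had 18 counts of Trbc2, a constant chain gene of the T-cell receptor, which was at 0 in NFKBIE-wt culture replicate 2 and in the 3 NFKBIE-ko cultures. Labels were kept as given, and results that rest on these libraries are given with and without them.

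In the NFKBIE-ko cultures, the receptor β constant genes Trbc1 and Trbc2 and the coreceptor gene Cd8a had 0 counts in all 3 libraries. Per length, Tcf7 was at 129.1 ± 17.0 TPM (SD, n = 3), Lck at 117.5 ± 5.99, Cd2 at 55.8 ± 6.64 and Cd3g at 40.8 ± 6.60. The other 6 members were each at 0.749 TPM or less on average, and Thy1 and Cd3e were lowest, at 0.0126 and 0.0563 TPM. Tcf7, Lck, Cd2 and Cd3g thus stood far above the other 6 in cultures in which the receptor β chain was not detectable, and the spreads of Tcf7 and Lck overlapped.

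In the NFKBIE-ko spleens the order was alike at the top. Tcf7 was at 218.0 ± 25.3 TPM (SD, n = 4), Cd2 at 120.5 ± 50.9, Lck at 105.5 ± 14.8 and Cd3g at 24.9 ± 4.09. Cd2 and Lck did not differ beyond their spread. The other 6 followed between 2.86 ± 1.35 TPM for Cd3d and 8.38 ± 3.44 for Thy1, and neighbours in that order did not differ beyond their spread either.

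**Figure D1:**
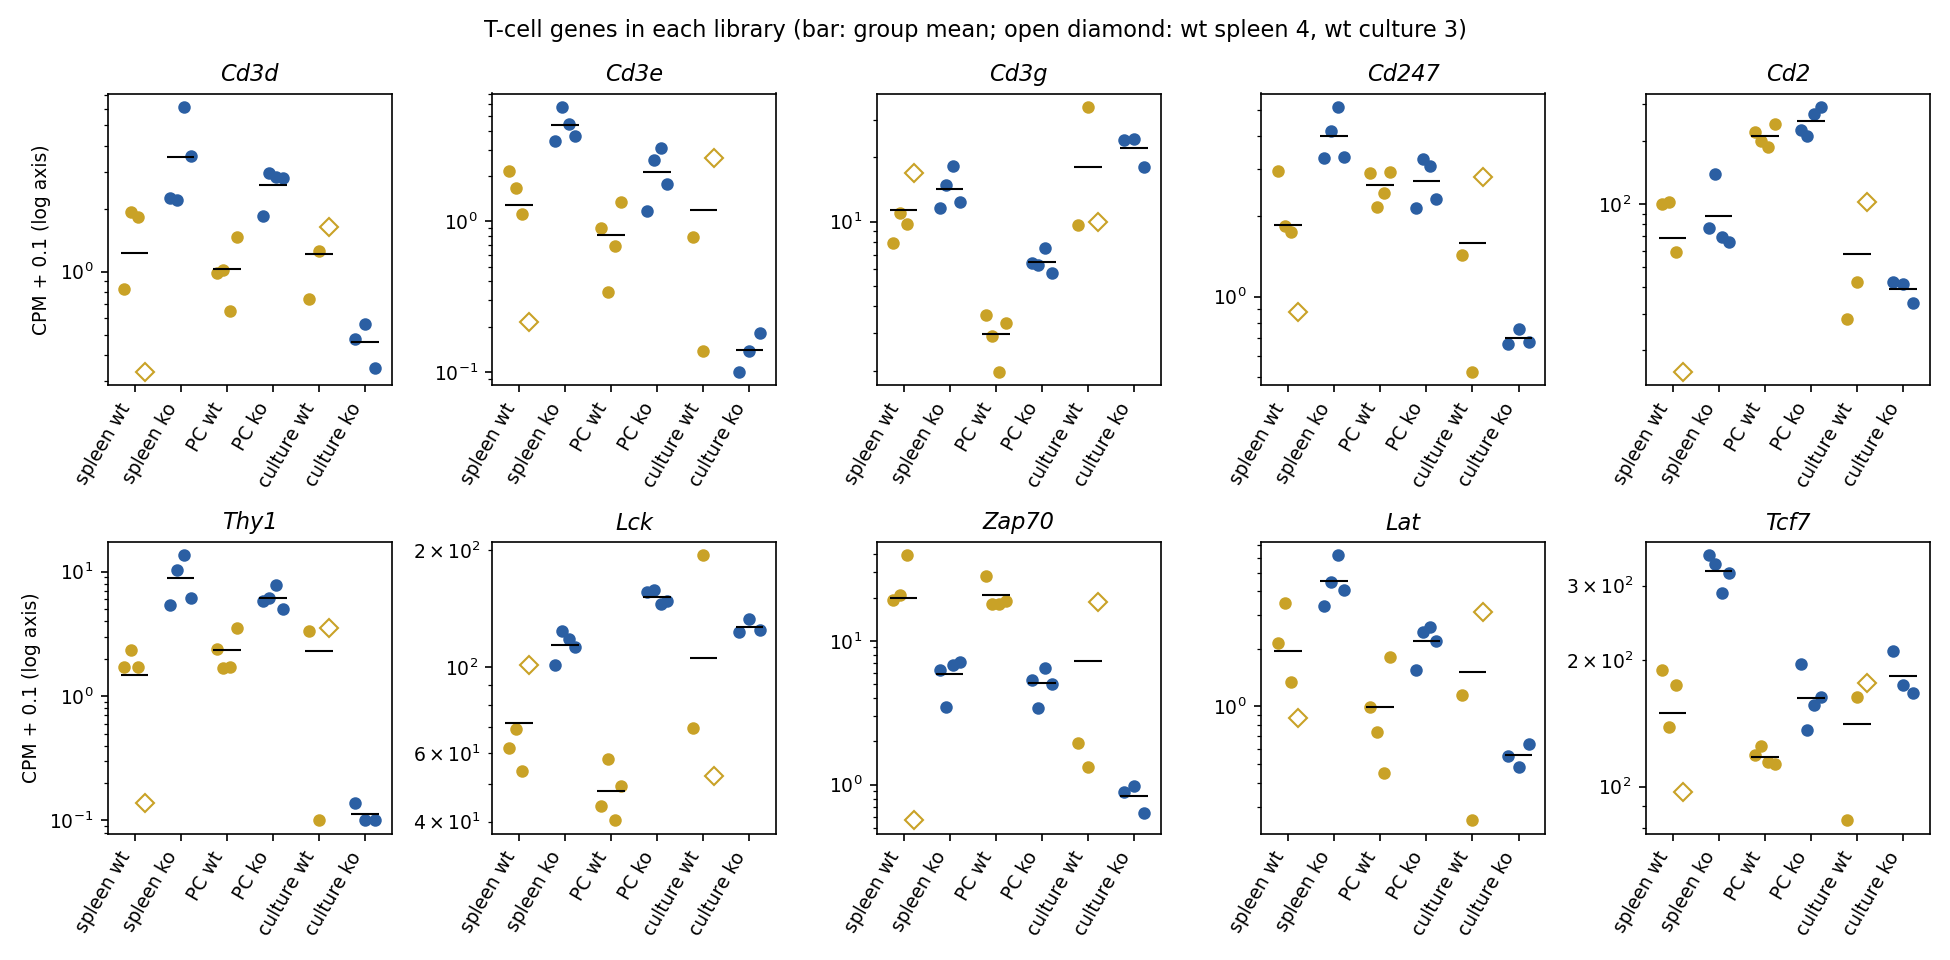
Level of each of the 10 genes in each of the 22 libraries, as CPM + 0.1 on a log axis, with NFKBIE-wt in yellow and NFKBIE-ko in blue, a bar at the group mean and open diamonds for NFKBIE-wt spleen replicate 4 and NFKBIE-wt culture replicate 3. Thy1 and Cd3e are near the floor in the NFKBIE-ko cultures, in the PC every NFKBIE-ko library is below every NFKBIE-wt library for Zap70, and in the spleen the open diamond is the lowest NFKBIE-wt value for Thy1, Cd3e, Cd3d and Zap70.

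Against the NFKBIE-ko cultures, the NFKBIE-ko spleens were higher by call in 7 of 10 members, against 8.79% of the 12355 genes tested, and lower in 0, against 6.3% (edgeR, where 1 member, Cd3g, was lower at an unadjusted p below 0.05, and DESeq2 0 lower). In bulk RNA, fewer cells of a type and less RNA per cell cannot be told apart. Thy1, a surface glycoprotein of mouse T cells, had 898 counts over the 4 spleens and 1 count over the 3 cultures, a ratio of summed CPM of 669.9 (95% counting interval 119.9 to 2.649e+04). Such intervals cover counting error of the pooled counts only and leave out the spread between libraries. Cd3e, the ε chain, had 435 and 3 counts, a ratio of 108.2 (36.8 to 526.6). Lat, Cd3d, Zap70 and Cd247 were higher by ratios of 9.66, 9.38, 7.81 and 6.47. The adhesion receptor gene Cd2 was higher by 2.22.

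The other 3 members did not share this. Cd3g was at 14.2 ± 2.98 CPM in the NFKBIE-ko spleens (n = 4) and 22.1 ± 3.67 in the cultures (n = 3), with a log2 fold change of -0.64 ± 0.18 (SE, adjusted p = 0.0223 in edgeR), which did not pass the fold threshold. Lck differed by -0.15 ± 0.09 on the log2 scale (adjusted p = 0.194). Tcf7 was higher by 0.83 ± 0.11 (adjusted p = 7.1e-04), also below the fold threshold.

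In the PC of mice with NFKBIE-ko tumors, the same comparison with the cultures gave 7 members higher by call, against 17.3% of 12721 genes, and 1 lower, against 5.8%. The ratios of summed CPM were 463.3 for Thy1 (82.8 to 1.833e+04), 51.6 for Cd3e (17.4 to 252.1), 6.84 for Cd3d, 6.65 for Zap70, 6.32 for Cd2, 4.57 for Lat and 4.33 for Cd247. Cd3g was the member that fell, by 1.74 ± 0.14 on the log2 scale (adjusted p = 2.4e-06), from 17.84 to 24.37 CPM in the cultures to 5.66 to 7.39 CPM in the PC. The 3 chain genes of CD3, which lie side by side on chromosome 9, thus went in different directions, with Cd3d and Cd3e higher and Cd3g lower than in culture.

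**Figure D2:**
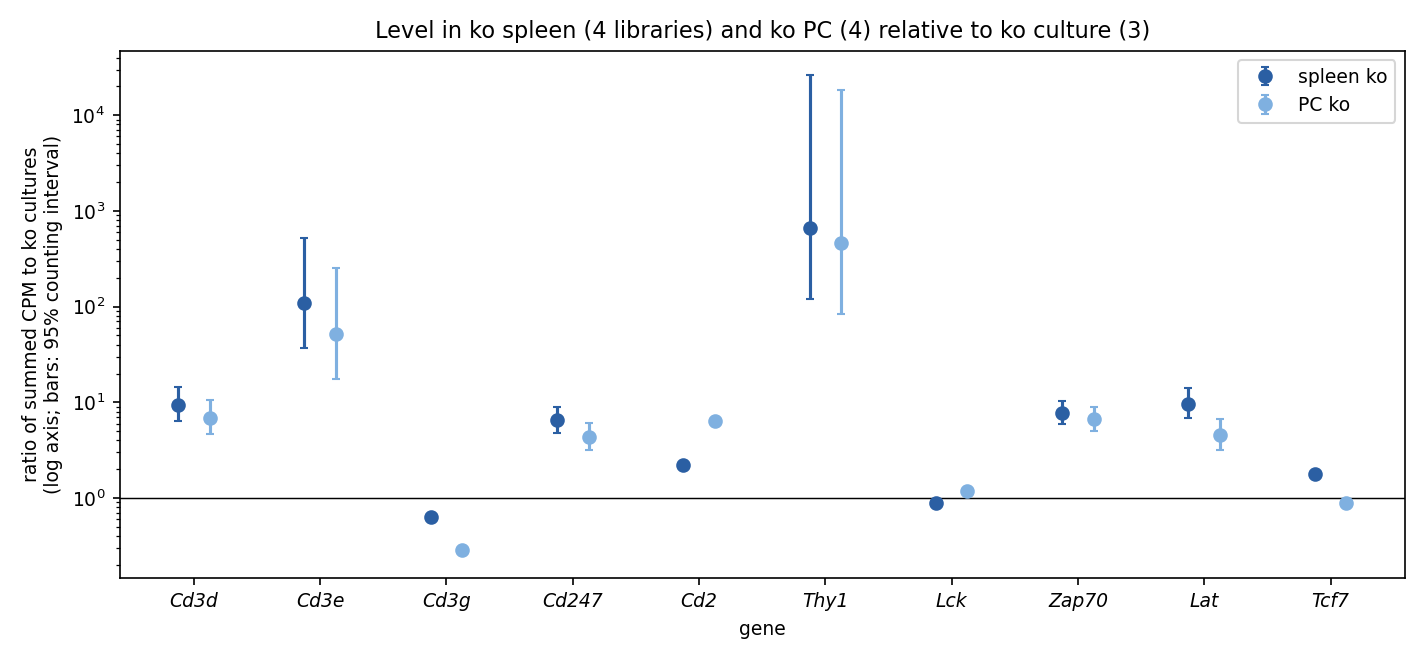
Ratio of the summed CPM of each gene in the NFKBIE-ko spleens (dark) and NFKBIE-ko PC (light) to that in the NFKBIE-ko cultures, on a log axis, with bars for the 95% counting interval. The bars leave out the spread between libraries. Thy1 and Cd3e stand at ratios from 51.6 to 669.9, whereas Lck lies at 0.897 and 1.20, Tcf7 at 1.77 and 0.887 and Cd3g at 0.636 and 0.286.

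The CD3 chain genes there are Cd3g (chr9:44880870-44891735, minus strand), Cd3d (chr9:44893083-44899173, plus strand) and Cd3e (chr9:44910037-44920925, minus strand). The sequence before the start is shown for Cd3e and Cd3g, whose patterns differ, and not for Cd3d. The sequences are those of RefSeq (GRCm38.p6), placed in GRCm39 by an exact match, and run up to the annotated start, Cd3e at chr9:44920926-44921159 and Cd3g at chr9:44891736-44891979. Capitals mark AGGAAG on either strand, the core that ETS factors bind.
Cd3e: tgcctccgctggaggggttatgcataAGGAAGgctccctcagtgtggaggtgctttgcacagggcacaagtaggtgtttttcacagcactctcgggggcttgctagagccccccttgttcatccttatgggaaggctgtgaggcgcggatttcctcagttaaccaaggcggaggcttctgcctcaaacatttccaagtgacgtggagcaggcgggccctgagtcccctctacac
Cd3g: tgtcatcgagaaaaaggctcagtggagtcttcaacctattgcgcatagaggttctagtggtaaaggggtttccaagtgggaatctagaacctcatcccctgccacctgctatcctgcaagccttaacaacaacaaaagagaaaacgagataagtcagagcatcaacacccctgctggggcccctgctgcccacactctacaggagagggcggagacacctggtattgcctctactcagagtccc
One match lies 208 bases before the start of Cd3e used here, that of the retained-intron transcript Cd3e-202. The letters are not in the window of Cd3g. The window of Cd3d, whose sequence is not shown, holds 1 match, 198 bases before its end. The full 250-base window of Cd3e runs on to chr9:44920910 and holds 2 matches, the other 17 bases before its end. It reaches the start of the protein-coding transcript Cd3e-201, at chr9:44920911. The counts of promoter entries use such full windows. Of 32851 RefSeq promoters read over 250 bases, 29.48% hold AGGAAG, and 8 of 12 promoter entries of the members do. The E-box CAGNTG was in 8 of 12 entries (44.82% of all promoters), the TCF/LEF core CTTTGA in 2 (13.83%) and the GATA core AGATAA in 1 (9.988%), and a match is a description of the sequence only. RefSeq entries were found for 8 of the 10 members, without Cd2 and Thy1.

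The comparison of genotypes in the PC asks which transcripts differed between NFKBIE-ko and NFKBIE-wt tumors at the site of injection. Of the 10 members, 6 were higher by call in NFKBIE-ko, against 9.97% of 12642 genes, and 1 was lower, against 3.5%. Higher were Lck, Cd3e, Thy1, Cd3d, Lat and Cd3g, and lower was Zap70. The median log2 fold change of the members was 1.17, against -0.0079 over all genes tested. In 1 fit of all 22 libraries 3 were called, Lck, Cd3g and Cd3d, and without NFKBIE-wt PC replicate 3 there were 4, Lck, Zap70, Thy1 and Cd3d. The share over all genes is not given for these fits, so their counts show only how far the calls moved.

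Cd3d, the δ chain, was at 1.748, 2.858, 2.719 and 2.691 CPM in the NFKBIE-ko PC and at 0.8898, 0.9144, 0.5464 and 1.369 CPM in the NFKBIE-wt PC. Every NFKBIE-ko library was above every NFKBIE-wt library, and Cd3d rose by 1.42 ± 0.30 on the log2 scale (SE, adjusted p = 0.00325). Cd3g, the γ chain, was at 6.269, 6.153, 7.393 and 5.659 CPM against 3.559, 2.823, 1.873 and 3.252 CPM. These groups did not overlap either, and Cd3g rose by 1.13 ± 0.21 (adjusted p = 0.00132). Without overlap, 5 members were higher, against 22.1% of the genes tested, and 1 was lower, against 19.4%.

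Cd3e was at 1.064, 2.461, 2.974 and 1.662 CPM in the NFKBIE-ko PC against 0.8089, 0.2385, 0.5854 and 1.241 CPM in the NFKBIE-wt PC. NFKBIE-ko replicate 1 lay below NFKBIE-wt replicate 4, so that the groups overlapped, and the change of 1.49 ± 0.46 passed the test (adjusted p = 0.0241). Cd247, which encodes the ζ chain, was at 2.052, 3.176, 2.974 and 2.216 CPM against 2.791, 2.067, 2.342 and 2.824 CPM. The 2 groups covered the same range, with a log2 fold change of 0.04 ± 0.22 (adjusted p = 0.898). Cd247 overlaps Pou2f1 on the opposite strand, and without a stated library strand reads of that stretch cannot be told apart.

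Thy1 was at 5.661, 6.034, 7.648 and 4.907 CPM in the NFKBIE-ko PC against 2.305, 1.59, 1.6 and 3.423 CPM. The groups did not overlap, and Thy1 rose by 1.43 ± 0.26 on the log2 scale (adjusted p = 0.00145). Cd2, the receptor for CD48 on T cells and other lymphocytes, was at 226.4, 210.6, 269.5 and 291.6 CPM against 219.9, 200.7, 186.9 and 241.6 CPM. Its groups overlapped, with a log2 fold change of 0.22 ± 0.12 (adjusted p = 0.162).

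Lck gave the smallest adjusted p of the members. It was at 156.2, 157.9, 145.2 and 147.6 CPM in the NFKBIE-ko PC and at 43.88, 57.73, 40.16 and 49.16 CPM in the NFKBIE-wt PC. Every NFKBIE-ko library was far above every NFKBIE-wt library, and Lck rose by 1.66 ± 0.10 on the log2 scale (adjusted p = 1.3e-06). Zap70 went the other way. It was at 5.281, 3.295, 6.331 and 4.907 CPM against 28.35, 17.85, 17.99 and 18.78 CPM, without overlap, and fell by 2.08 ± 0.22 (adjusted p = 5.9e-05). The 2 kinases that act in sequence at the receptor thus moved in opposite directions.

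Lat was at 1.444, 2.342, 2.507 and 2.097 CPM in the NFKBIE-ko PC against 0.8898, 0.6361, 0.3513 and 1.711 CPM. NFKBIE-wt replicate 4 reached into the NFKBIE-ko range, and the change of 1.21 ± 0.41 passed the test (adjusted p = 0.0358). Tcf7, the transcription factor TCF1 of T-cell development and memory, was at 195.1, 136.3, 156.1 and 163.1 CPM against 118.6, 124.7, 114.5 and 113.0 CPM. Its groups did not overlap, but the difference of 0.46 ± 0.10 (adjusted p = 0.00442) was below the fold threshold.

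Host cell markers moved with genotype in the PC. The summed level of 10 macrophage markers was 3816 to 5655 CPM in NFKBIE-ko and 562.7 to 1735 CPM in NFKBIE-wt, with 9 of 10 higher by call, and that of 8 granulocyte markers was 30.8 to 46.9 CPM against 151.8 to 460.8 CPM, with 5 of 7 tested lower. The summed receptor constant genes, 7 in the list, were at 10.3 to 15.6 CPM in NFKBIE-ko and 13.7 to 20.7 CPM in NFKBIE-wt. Trac, the α constant gene, was the largest part of that sum, at 6.77 CPM on average in the NFKBIE-ko PC. It was also read in the NFKBIE-ko cultures, at 3.45 CPM on average. On the log2 scale Trac differed by -0.99 ± 0.13, whereas Trbc1 rose by 1.25 ± 0.39 and Trbc2 by 1.43 ± 0.42. None of the macrophage markers was at 0 in any PC library. The part of these cells in the results was not tested.

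Lck is read from a distal and a proximal start, 15243 bases apart on chromosome 4 (chr4:129442137-129467434, minus strand). The sequences before both are shown because Lck had the smallest adjusted p of the members in the PC and was read from each, the distal at chr4:129467435-129467684 and the proximal at chr4:129452192-129452415. AGGAAG on either strand is in capitals.
Lck distal: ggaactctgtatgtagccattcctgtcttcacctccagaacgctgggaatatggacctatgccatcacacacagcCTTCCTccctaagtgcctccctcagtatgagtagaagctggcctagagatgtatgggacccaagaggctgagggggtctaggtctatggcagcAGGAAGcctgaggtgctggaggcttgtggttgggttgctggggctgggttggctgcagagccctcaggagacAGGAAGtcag
Lck proximal: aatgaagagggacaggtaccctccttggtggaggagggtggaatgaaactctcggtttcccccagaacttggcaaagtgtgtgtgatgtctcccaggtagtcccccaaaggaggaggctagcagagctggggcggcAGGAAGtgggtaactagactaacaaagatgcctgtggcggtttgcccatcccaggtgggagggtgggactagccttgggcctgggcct
The distal window holds 3 matches, at 175, 82 and 10 bases before the start, and the proximal window 1, at 88 bases.

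The transcript from the distal start (Lck-202) was at 94.57, 88.99, 73.65 and 93.25 CPM in the NFKBIE-ko PC against 10.96, 24.2, 9.029 and 21.83 CPM in the NFKBIE-wt PC. The 2 full transcripts from the proximal start (Lck-201 and Lck-208) summed to 59.15, 66.63, 66.53 and 51.94 CPM against 31.79, 32.43, 30.16 and 26.32 CPM. Neither start overlapped between the genotypes. Tested per transcript, Lck-202 rose by 2.45 ± 0.32 (adjusted p = 0.00251) and Lck-208 by 2.22 ± 0.38 (adjusted p = 0.00726), and Lck-201 differed by 0.83 ± 0.13 (adjusted p = 0.00428), below the fold threshold. Over all 34098 transcripts tested, 6.05% were called in either direction.

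As a share of both starts, the distal transcript made up 61.52, 57.19, 52.54 and 64.23% in the NFKBIE-ko PC and 25.64, 42.73, 23.04 and 45.34% in the NFKBIE-wt PC. The groups did not overlap, with a mean of 58.9 ± 5.12% against 34.2 ± 11.5% (SD, n = 4 each). In a two-sided exact permutation test the difference of 24.7 percentage points gave p = 0.0286, the smallest that 4 against 4 libraries allow, and did not pass after Benjamini-Hochberg adjustment over 3 compartments (0.0857). In the spleen the difference was -0.72 points (exact p = 0.943), or 6.44 points without NFKBIE-wt spleen replicate 4 (exact p = 0.4), and in culture it was 17.96 points (exact p = 0.4, where 3 against 3 cannot go below 0.1), or 5.72 without NFKBIE-wt culture replicate 3 (exact p = 0.8). The transcripts share all but their first exons, and the split is an estimate made by Salmon.

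**Figure D3:**
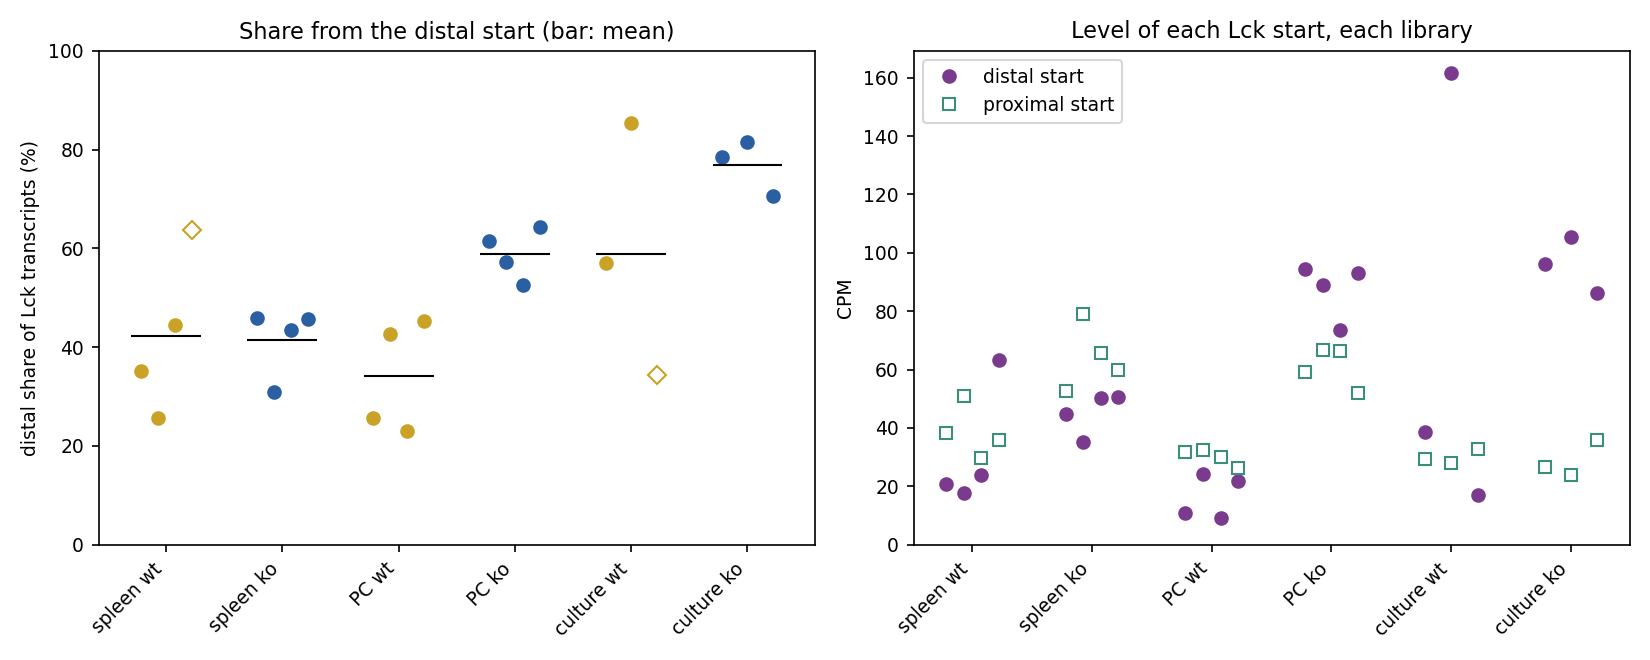
Share of Lck transcripts from the distal start in each library (left, percent, bar at the group mean, open diamonds for NFKBIE-wt spleen replicate 4 and NFKBIE-wt culture replicate 3) and CPM of the distal (filled) and proximal (open) transcripts in each library (right). In the PC the share is 52.54 to 64.23% in NFKBIE-ko and 23.04 to 45.34% in NFKBIE-wt, and in the NFKBIE-ko cultures 70.58 to 81.56%.

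In the spleen, with all libraries, 1 of the 10 members was higher by call in NFKBIE-ko, against 1.4% of 12221 genes, and 0 were lower, against 1.59% (edgeR, 7 members with an unadjusted p below 0.05, DESeq2 5 higher and 0 lower). Leaving out the NFKBIE-wt library of spleen replicate 4, 2 were higher (3.03% of 12471 genes) and 1 lower (3.33%). In 1 fit of all 22 libraries 3 were called, Tcf7, Thy1 and Cd3d, and without NFKBIE-ko spleen replicate 1 or 4 there were 0 (edgeR). For these fits the share over all genes is not given, and the counts show only how far the calls moved. Groups did not overlap for 5 members higher in NFKBIE-ko (8.09% of genes) and 0 lower (8.16%), and without NFKBIE-wt replicate 4 for 7 higher (12.9%) and 1 lower (13.6%).

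Tcf7 was the member called with all libraries. It was at 353.8, 337.5, 288.2 and 320.6 CPM in the NFKBIE-ko spleens and at 189.0, 138.7, 173.9 and 96.82 CPM in the NFKBIE-wt spleens. The groups did not overlap, and Tcf7 rose by 1.12 ± 0.19 on the log2 scale (adjusted p = 0.0156). Without NFKBIE-wt replicate 4, its lowest library, the difference was 0.96 ± 0.14 (adjusted p = 0.00337), and the call was lost to the fold threshold alone.

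Of the CD3 chain genes, Cd3d and Cd3e were higher in every NFKBIE-ko spleen without passing the test when all libraries were used, and Cd3g overlapped. Cd3e was at 3.332, 5.672, 4.363 and 3.578 CPM against 2.049, 1.578, 1.014 and 0.116 CPM, where the last value is the library labelled NFKBIE-wt replicate 4. No library overlapped, with a log2 fold change of 1.83 ± 0.63 (adjusted p = 0.128), and without that library Cd3e rose by 1.45 ± 0.33 (adjusted p = 0.0221). Cd3d was at 2.145, 2.088, 6.028 and 3.464 CPM against 0.7231, 1.821, 1.717 and 0.2321 CPM, also without overlap, and its difference of 1.60 ± 0.62 did not pass (adjusted p = 0.167, and 0.125 without replicate 4). Cd3g was at 11.53, 14.69, 18.12 and 12.26 CPM against 7.833, 10.88, 9.598 and 16.79 CPM. Here the library labelled NFKBIE-wt replicate 4 was the second highest of the 8, where it was the lowest for the other 2 chains, and the difference of 0.32 ± 0.25 did not pass (adjusted p = 0.493). Without it the groups of Cd3g did not overlap and the difference was 0.58 ± 0.20 (adjusted p = 0.0940). Cd247 lay between 3.217 and 5.037 CPM in NFKBIE-ko and 0.7736 and 2.852 CPM in NFKBIE-wt (1.15 ± 0.39, adjusted p = 0.124, and 0.90 ± 0.30, adjusted p = 0.0878, without replicate 4).

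Thy1 had the largest fold change of the members in the spleen. It was at 5.323, 10.28, 13.44 and 6.052 CPM in NFKBIE-ko against 1.607, 2.266, 1.6 and 0.03868 CPM in NFKBIE-wt. The groups did not overlap, and the log2 fold change was 2.67 ± 0.75 (adjusted p = 0.0761), whereas without NFKBIE-wt replicate 4, which had near none, Thy1 rose by 2.26 ± 0.37 (adjusted p = 0.00615). Cd2 overlapped, at 65.62 to 138.9 CPM in NFKBIE-ko and 15.67 to 101.9 CPM in NFKBIE-wt, and differed by 0.34 ± 0.50 on the log2 scale (adjusted p = 0.740), or by 0.0111 ± 0.29 without replicate 4.

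Zap70 was again lower in NFKBIE-ko, at 6.127, 3.348, 6.663 and 7.003 CPM against 19.0, 20.64, 39.25 and 0.4642 CPM. The 3 spleens of NFKBIE-wt replicates 1 to 3 were all above the NFKBIE-ko spleens and replicate 4 was below them. The log2 fold change was -1.78 ± 0.86 (adjusted p = 0.252), and without replicate 4 Zap70 fell by 2.18 ± 0.32 (adjusted p = 0.00338). Lck was at 101.3, 123.5, 118.2 and 112.4 CPM against 61.7, 69.07, 53.88 and 101.3 CPM. The highest NFKBIE-wt library, again replicate 4, met the lowest NFKBIE-ko library, and Lck differed by 0.66 ± 0.19 (adjusted p = 0.0810), or by 0.89 ± 0.13 without that library (adjusted p = 0.00314, below the fold threshold). Lat lay between 3.255 and 6.068 CPM against 0.7736 and 3.358 CPM (1.25 ± 0.45, adjusted p = 0.140, and 0.99 ± 0.37, adjusted p = 0.118, without replicate 4).

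Beside these values, the summed receptor constant genes were at 26.3 to 42.1 CPM in the NFKBIE-ko spleens. NFKBIE-wt replicates 1 to 3 were at 31.2 to 46.5 CPM. Replicate 4 was at 7.43 CPM and had 4 of the 7 genes at 0. Trac was the largest part of that sum, at 23.5 CPM on average in the NFKBIE-ko spleens. It was also read in the NFKBIE-ko cultures, at 2.541 to 4.241 CPM. Trbc2 was at 5.82 to 13.9 CPM in the NFKBIE-ko spleens and at 3.32 CPM or less in the NFKBIE-wt spleens. Trgc1 went the other way, at 0.32 against 2.55 CPM on average. The sum thus mixes genes that differed in opposite directions. Macrophage markers summed to 89.5 to 353.0 CPM in NFKBIE-ko and 56.8 to 80.0 CPM in NFKBIE-wt replicates 1 to 3. Their part in the differences was not tested.

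**Figure D4:**
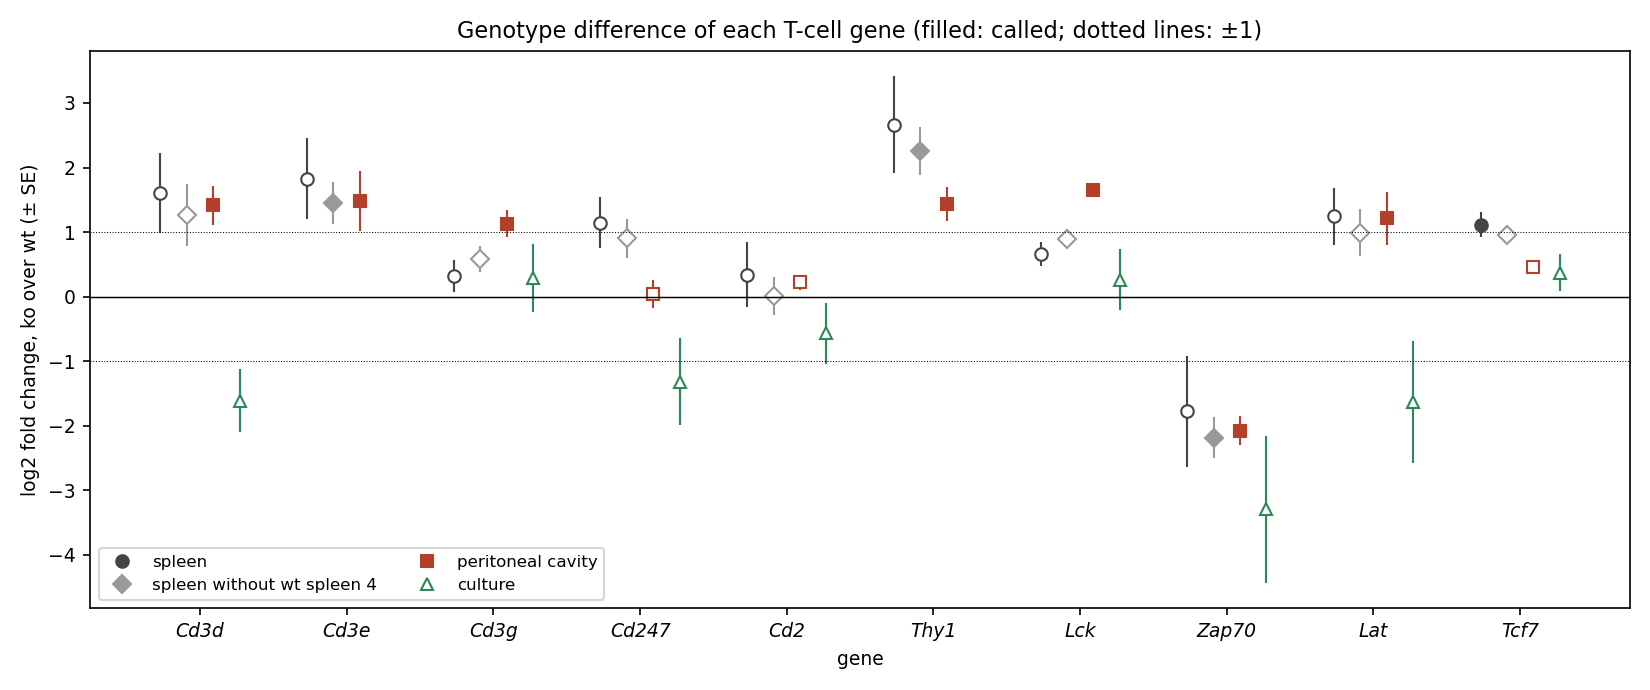
Log2 fold change of NFKBIE-ko over NFKBIE-wt (± SE) for each gene in the spleen, in the spleen without NFKBIE-wt replicate 4, in the PC and in culture, filled where the gene was called, with dotted lines at ±1. In the PC 7 genes are filled, Lck at 1.66 and Zap70 at -2.08 among them, in the spleen Tcf7 is filled at 1.12, and in culture none is, with Cd3e and Thy1 not tested there.

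In culture, 0 of the 8 members tested were called higher, against 0.0341% of 11722 genes, and 0 lower, against 0% (edgeR, 2 with an unadjusted p below 0.05, DESeq2 1, Thy1). Cd3e and Thy1 did not pass the filter on low counts. Without NFKBIE-wt culture replicate 2, which leaves replicates 1 and 3, 3 members were called. No share over all genes is given for that fit, so the count shows only how far the calls moved. Lck and Cd3g were higher, by 1.06 and 1.19 on the log2 scale, and Thy1 was lower. Thy1 was at 0.03753 CPM or less in the NFKBIE-ko cultures and at 3.218 and 3.408 CPM in the NFKBIE-wt cultures kept. Lck was at 123.3, 132.5 and 124.4 CPM in the NFKBIE-ko cultures and at 69.58, 193.9 and 52.24 CPM in the NFKBIE-wt cultures. The NFKBIE-ko libraries lay close together and inside the NFKBIE-wt range, with a log2 fold change of 0.26 ± 0.48 (adjusted p = 0.817).

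NFKBIE-wt culture replicate 2, the one without Trbc1, Trbc2 and Cd8a counts, held the highest Lck and Cd3g of its group. Cd3g was at 24.02, 24.37 and 17.84 CPM in NFKBIE-ko and at 9.532, 34.44 and 9.812 CPM in NFKBIE-wt. Against that replicate alone, an alternative chosen after seeing the data, Lck had a log2 fold change of -0.62 (adjusted p = 0.00115) and Cd3g of -0.64, neither past the fold threshold, and 0 of 8 members were called (edgeR, 3 with an unadjusted p below 0.05), against 2.46% of 12070 genes in either direction. That fit has 1 NFKBIE-wt library, whose spread is taken to be like that of the NFKBIE-ko cultures.

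Zap70 was at 0.7882, 0.8856 and 0.5369 CPM in the NFKBIE-ko cultures and at 1.85, 1.228 and 18.39 CPM in the NFKBIE-wt cultures. All NFKBIE-ko values were below all NFKBIE-wt values, also without replicate 3, which held the 18.39 CPM, with log2 fold changes of -3.29 ± 1.14 (adjusted p = 0.517) and -1.05. Cd3d was lower without overlap too, at 0.3753, 0.4621 and 0.2478 CPM against 0.6435, 1.152 and 1.535 CPM (-1.61 ± 0.49, adjusted p = 0.506). Such lower groups without overlap were 2 of 10 members, against 9.79% of genes, and higher ones 0, against 9.9%. Without replicate 3 the lower ones were again 2, against 14.3%. Thy1 had 1 count over the 3 NFKBIE-ko cultures and was at 3.218, 0 and 3.408 CPM in NFKBIE-wt, so that its presence there followed the libraries with Trbc2 counts. Tcf7 was at 166.5 to 209.8 CPM in NFKBIE-ko and 83.05 to 176.2 CPM in NFKBIE-wt, which overlapped through NFKBIE-wt replicate 3 alone. Without that library NFKBIE-wt was at 83.05 and 162.7 CPM, below every NFKBIE-ko culture. Tcf7 was then the 1 member higher without overlap, and the share of all genes that were higher is not given for that setting.

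Between spleen and PC, Cd3g and Cd2 differed in both genotypes and in opposite directions. In NFKBIE-wt, 1 member was higher by call in the spleen (3.21% of 12370 genes) and 1 lower (7.92%), Cd3g by 1.94 ± 0.29 on the log2 scale (adjusted p = 0.00206) and Cd2 by -1.64 ± 0.49 (adjusted p = 0.0362), and without replicate 4 of the spleen both were called, at 1.69 (4.41% of 12655 genes higher) and -1.30 (10% lower). With the replicate number as a block, Cd3g alone was called in NFKBIE-wt, and Cd2 was at -1.89 (adjusted p = 0.0732). In NFKBIE-ko, 4 were higher in the spleen (6.46% of 12628 genes) and 1 lower (15.6%). Cd3g rose by 1.16 ± 0.17, Lat by 1.08 ± 0.25, Cd3e by 1.06 ± 0.32 and Tcf7 by 1.004 ± 0.12, and Cd2 fell by 1.50 ± 0.24 (adjusted p from 7.2e-05 to 0.0164). Tcf7 stood at the fold threshold itself, and DESeq2 did not call it. Lck differed by -0.41 ± 0.08 (adjusted p = 0.00145), which did not reach the fold threshold. In 1 fit of all 22 libraries 2 members were called, Cd3g and Cd2, and 3 were called without NFKBIE-ko spleen replicate 2 or without NFKBIE-ko PC replicate 1. No share over all genes is given for these fits, whose counts show only how far the calls moved.

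Against the NFKBIE-wt cultures the values depended on the libraries used. Counts given below without a share over all genes show only how far the calls moved. Between spleen and culture 0 members were called and 0 had an unadjusted p below 0.05 (edgeR, DESeq2 0 as well), against 0% of 12332 genes. Without NFKBIE-wt spleen replicate 4 and with culture replicate 2 alone, 4 were higher in the spleen (5.95% of 12905 genes), Thy1, Cd3e, Zap70 and Lat, and 2 lower (4.38%), Cd3g by -1.87 and Lck by -1.66. Between PC and culture, Cd2 was higher in the PC by 1.92 ± 0.43 (1 member, 5.55% of 12571 genes) and Cd3g fell by 2.60 ± 0.50 (1 member, 3.36%). Only Cd3g was called without NFKBIE-wt PC replicate 1 or 4 or without culture replicate 2, 5 members were called without culture replicate 3 (16.3% of 12830 genes in either direction), and with culture replicate 2 alone 5 members were higher (13.9%) and 2 lower (6.33%).

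Whether the effect of genotype differed between compartments was tested in 1 fit of all 22 libraries. Between spleen and PC, 0 members differed by call, against 1.9% of 13537 genes (edgeR, 2 with an unadjusted p below 0.05, Lck and Tcf7, DESeq2 0). Lck differed by -0.998 ± 0.39 on the log2 scale (adjusted p = 0.149) and Tcf7 by 0.65 ± 0.28 (adjusted p = 0.195). Without NFKBIE-wt spleen replicate 4, 0 were called and 0 had an unadjusted p below 0.05 (edgeR), against 1.81%. The genes called in the PC and not in the spleen are therefore not shown to differ between the 2 sites.

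Between spleen and culture, the effect on Thy1 differed by call (1 member, 0.355% of genes), and between PC and culture that on Cd3d, Cd3e and Thy1 (3 members, 3.15%). Both counts depended on single cultures, and fell to 0 without any 1 of the 3 NFKBIE-ko cultures and rose to 5 without NFKBIE-wt culture replicate 2. Shares over all genes are not given for those fits. The NFKBIE-wt side came from culture replicates 1 and 3, since Thy1 was at 0 in replicate 2, and without them the difference of Thy1 between PC and culture was -0.41 on the log2 scale. In that fit Lck and Cd3g differed by call (2 members, 3.11% of 14166 genes), with 2.28 ± 0.27 for Lck (adjusted p = 1.2e-04) and 1.78 ± 0.41 for Cd3g (adjusted p = 0.0158). Without NFKBIE-wt spleen replicate 4 as well, the difference between spleen and culture was called for Lck (1.52), Cd3g (1.24) and Cd3d (2.94), against 3.11% of 14159 genes. For Thy1 between spleen and culture the call was also lost without NFKBIE-ko spleen replicate 3 or NFKBIE-wt culture replicate 3.

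Other genes of T cells and of receptor signalling were read from lists. Over all genes tested, 9.97% rose and 3.5% fell in the PC, 1.4% rose and 1.59% fell in the spleen (3.03% and 3.33% without NFKBIE-wt replicate 4), and the lists' counts stand beside these shares. Among the receptor constant genes, 2 of 3 tested rose in the NFKBIE-ko PC, Trbc1 by 1.25 ± 0.39 and Trbc2 by 1.43 ± 0.42 on the log2 scale, whereas Trac, the α constant gene, differed by -0.99 ± 0.13 (adjusted p = 2.2e-04), which did not reach the fold threshold. Trac was also read in the NFKBIE-ko cultures, at 2.541 to 4.241 CPM, where both β constant genes were at 0. In the spleen 0 of 4 tested were called with all libraries (edgeR, 2 with an unadjusted p below 0.05, DESeq2 3), and without NFKBIE-wt replicate 4 Trbc2 rose by 1.801 ± 0.35 and the γ constant gene Trgc1 fell by 3.39 ± 0.57. Trgc1 had 85, 105 and 65 counts in NFKBIE-wt spleens 1 to 3 and 17, 10, 4 and 2 counts in the NFKBIE-ko spleens.

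The coreceptor gene Cd4 separated the genotypes in every compartment. It was at 131.7, 161.8, 109.4 and 113.3 CPM in the NFKBIE-ko spleens against 7.351, 3.642, 4.955 and 24.41 CPM, and at 129.0 to 160.0 CPM in the NFKBIE-ko PC against 9.969 to 15.82 CPM. In the cultures it was at 110.2, 80.82 and 103.7 CPM against 11.82, 8.177 and 5.168 CPM. No library overlapped at any site, and Cd4 rose by 3.66 ± 0.58 in the spleen (adjusted p = 0.0111) and 3.60 ± 0.15 in the PC (adjusted p = 3.2e-07), and differed by 3.55 ± 0.31 in culture (adjusted p = 0.0501). With NFKBIE-wt spleen replicate 4 left out it rose by 4.601 ± 0.28 in the spleen (adjusted p = 1.0e-04). Against culture replicate 2 alone, a fit with 1 NFKBIE-wt library, the difference was 3.58. Cd4 was thus high in the NFKBIE-ko cultures, in which Cd3e, Thy1 and Trbc2 were near or at 0. Cd8a, the coreceptor chain of cytotoxic T cells, rose by 2.92 ± 0.69 in the spleen and 1.87 ± 0.44 in the PC, and was at 0 in all NFKBIE-ko cultures.

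Of 11 signalling genes typical of T cells, 10 were tested in the spleen and in the PC, and in the PC 3 rose and 0 fell, the kinase gene Prkcq by 2.11 ± 0.17 and the adaptor genes Lcp2 and Grap2 each by 1.52 ± 0.24. Lcp2 was at 56.0 CPM on average in the NFKBIE-ko PC, where Cd3e was at 2.04. In the NFKBIE-ko cultures Lcp2 was at 0.172 CPM, Prkcq at 1.16 and Grap2 at 2.10. The cells that held these transcripts were not tested. Of 11 signalling genes that B cells share, 0 were called in the PC (edgeR, 10 with an unadjusted p below 0.05, DESeq2 1, Rasgrp1) and Fyn rose in the spleen, by 1.11 ± 0.26. The median log2 fold change was 0.67 in the PC for the T-cell list and 0.35 for the shared list, against -0.0079 over all genes, and 1.11 and -0.19 in the spleen, against -0.0075.

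Among T-cell transcription factors, Rora, Zbtb7b and Eomes rose in the PC (3 of 9 tested, by 2.53, 1.46 and 1.18), and Runx3 rose in the spleen (1 of 11, by 1.15 ± 0.22). Without NFKBIE-wt spleen replicate 4, 4 of 11 rose in the spleen, with Tbx21 at 3.45, Eomes at 1.89, Tox at 1.70 and Runx3 at 1.04. Among T-cell surface genes, Cd28, Cd226, Cd96 and Cd6 rose in the PC (4 of 12, by 2.13, 2.09, 1.76 and 1.65) and the interleukin 7 receptor gene Il7r fell by 1.25 ± 0.11. The chemokine receptor gene Ccr7 rose in the spleen by 1.17 ± 0.24, as 1 of 12. Several of these genes were also read in the NFKBIE-ko cultures, where Trbc1, Trbc2 and Cd8a were at 0. On average Il7r was at 142.6 CPM there, Ccr7 at 73.6, Runx3 at 46.9, Tbx21 at 33.6, Cd6 at 14.0 and Zbtb7b at 11.7. Rora was at 0.0138 CPM, and Eomes, Tox, Cd28, Cd226 and Cd96 were at 0. Which cells held these transcripts in the spleen and PC was not tested. In culture 0 of 32 genes tested of these 6 lists were called (edgeR, 8 with an unadjusted p below 0.05, DESeq2 5). Against NFKBIE-wt culture replicate 2 alone, Cd4 differed as given above, Prkcq was higher by 4.74 and Grap2 by 3.42, and Fyn was lower by 1.81. That fit, chosen after seeing the data, has 1 NFKBIE-wt library, so that these are effect sizes only.

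The most abundant genes of these lists that were not called at either site had smaller or more variable differences. Sh2d2a, a T-cell adaptor, differed by 0.21 ± 0.11 in the spleen and -0.16 ± 0.09 in the PC, the transcription factor gene Nfatc1 by -0.23 ± 0.24 and -0.0279 ± 0.21, and Ets1 by -0.49 ± 0.23 and -0.0323 ± 0.09. The phosphatase gene Ptpn22 differed by -0.54 ± 0.39 in the spleen and -0.87 ± 0.12 in the PC, and the activation marker Cd69 by 0.42 ± 0.55 and -1.48 ± 0.51 (adjusted p = 0.0516 in the PC). Of the B-cell list, Ighm, the heavy chain of the IgM receptor, differed by -0.54 ± 0.11 and -0.55 ± 0.07, and Cd79a, which pairs with it, by -0.45 ± 0.19 and 0.26 ± 0.07.

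Markers of other cells were read the same way. In the PC, of the NK cell list Ncr1 rose by 1.56 and Klrb1c fell by 1.20 (7 tested), of stromal and endothelial genes Dcn, Col1a2 and Col3a1 fell (3 of 5 tested), of platelet genes Itga2b fell (1 of 2), and of the B-cell list Cd22 rose by 1.55 ± 0.19 (1 of 9). Of the erythroid list 0 of 5 were called (edgeR, 0 with an unadjusted p below 0.05, DESeq2 0). In the spleen 0 genes of the NK, platelet, stromal, granulocyte, erythroid, macrophage and B-cell lists were called with all libraries (edgeR, with an unadjusted p below 0.05 for 6 macrophage and 4 B-cell genes, DESeq2 1, Fcgr1). Without NFKBIE-wt spleen replicate 4, 3 of 10 macrophage markers rose there, Fcgr1, Adgre1 and Csf1r, and Cd79b fell by 1.10 ± 0.16. In culture 0 genes of these lists were called (edgeR, with an unadjusted p below 0.05 for 4 B-cell and 2 erythroid genes, DESeq2 2, Cd22 and Lyz2), and no granulocyte gene passed the filter. Against culture replicate 2 alone, which leaves 1 NFKBIE-wt library, Cd22 was higher by 1.20.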

How the data were processed

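The authors made paired-end mRNA libraries, quantified them per transcript with Salmon 1.8 on GRCm39 (per the labels' processing notes) and deposited estimated counts (expected counts), which were not normalized. The library strand is not given in the sources used here. The table held 62492 transcripts, of which 62147 matched GENCODE vM39 of the same build (17023 genes) and the rest held 0.619% of the counts. Of the values 69.5% were not whole numbers, and sums per gene were rounded to whole counts. All 22 columns were used. The labels name blood as the tissue and describe NFKBIE-ko samples under a name that includes wt, so that genotype and compartment were taken from title and source.

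Genes were filtered (filterByExpr), TMM-scaled and tested with edgeR 4.0.16 (robust quasi-likelihood fits, limma 3.58.1, R 4.3.3) per comparison, with the differences between compartments in 1 fit of all 22 libraries and Benjamini-Hochberg adjustment over all genes. Shares of Lck starts were compared with an exact permutation test (scipy 1.17.1). The tests were tried on simulated counts, with changes set only in genes of higher counts and with a single fixed spread. That setting does not cover genes near the floor or libraries that go against their label. Alternatives were DESeq2 1.42.0 and its size factors, other filters on low counts, all libraries in the fit, the most abundant transcript per gene, the replicate number as a block, and fits that omit 1 library each.

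The members, the 13 other gene lists (T-cell receptor constant genes, coreceptors, signalling of T cells and shared with B cells, T-cell transcription factors and surface genes, NK cells, platelets, stroma and endothelium, B cells, macrophages, granulocytes and erythroid cells) and the comparisons were chosen with earlier results of these data known. Named were the members, Nfkbie, the genes called in each other list and its 2 most abundant over spleen and PC (for host cell lists, by count only), and the 8 genes that followed Cd3d, Cd3e and Cd3g most closely. Rasgrp1 and the genes called only without a library were named after their values were seen. No pair of libraries in a group agreed within sampling noise (chi-square per degree of freedom 7.12 to 213). Spleen and PC libraries of 1 genotype share mice that the labels do not tie to libraries, and were tested as independent samples, with the block as an alternative. A result for a gene of the T-cell signalling list in the spleen is not reported here.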

Additional observations from a re-analysis of the deposited data

Results flagged for a closer look

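Of 40 groups of 4 libraries tested (10 members in 4 groups), 3 held a library far from the rest by Dixon's criterion, which chance gives in about 1 of 20. Cd3d was at 1.748 CPM in NFKBIE-ko PC replicate 1, below the other 3. Cd2 was at 138.9 CPM in NFKBIE-ko spleen replicate 2, above the other 3, and Zap70 was at 28.35 CPM in NFKBIE-wt PC replicate 1, above the other 3.

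The effect of genotype differed by call between a site and culture for 3 members, and these calls rested on single cultures. Without any 1 of the 3 NFKBIE-ko cultures 0 calls remained. With the replicate number as a block, only Thy1 between PC and culture was still called. Without NFKBIE-wt cultures 1 and 3, that difference of Thy1 was -0.41 on the log2 scale. For Thy1 the difference was 9.62 on the log2 scale between spleen and culture (adjusted p = 0.0267) and 8.39 between PC and culture (adjusted p = 0.0174), for Cd3e it was 6.13 (adjusted p = 0.0259) and for Cd3d 3.03 (adjusted p = 0.0356) between PC and culture (edgeR). Thy1 and Cd3e had 1 and 3 counts over the 3 NFKBIE-ko cultures, so that the fitted sizes depend on the prior count and are no bound.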

How the results depend on the processing

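Counts of members called moved by over 1.5 times as follows. For several of these alternatives the share of all genes called is not given, so the counts show only how far the calls moved. In the spleen, NFKBIE-ko against NFKBIE-wt gave 1, with DESeq2 5, with all 22 libraries in the fit 3, with the replicate number as a block 0, and between 0 and 3 when 1 library was left out. In the PC it gave 7, with all 22 libraries 3, and between 4 and 7 with 1 left out. In culture it gave 0, with DESeq2 or all 22 libraries 1, and between 0 and 3 with 1 left out. Spleen against PC gave 2 in NFKBIE-wt, 1 without a filter on low counts, 1 with the replicate block and between 1 and 2 with 1 library left out, and 5 in NFKBIE-ko, 2 with all 22 libraries and between 3 and 5 with 1 left out. Spleen against culture in NFKBIE-wt gave 0, 1 without NFKBIE-wt spleen 4 and culture 3, and 6 without culture 1 as well. PC against culture in NFKBIE-wt gave 2, 0 with the replicate block, 7 without cultures 1 and 3 and between 1 and 5 with 1 left out. The difference of effects between spleen and culture gave 1, 5 with DESeq2, 0 with only the 4 groups in the fit, 0 with the replicate block, 3 without NFKBIE-wt spleen 4 and cultures 1 and 3, and between 0 and 5 with 1 left out, and that between PC and culture gave 3, 5 with DESeq2, 1 with the replicate block and between 0 and 5 with 1 left out.

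Single genes changed sign in culture without NFKBIE-wt cultures 1 and 3 (Cd3g -0.64, Cd247 0.50, Lck -0.62, Lat 1.54, and Thy1 in the difference between PC and culture -0.41, or -0.40 without NFKBIE-wt spleen 4 as well), and Lck between PC and culture in NFKBIE-ko with its most abundant transcript (-0.0649). With 1 library left out, the log2 fold change of Cd247 in the PC ranged from -0.0637 to 0.14, and in culture that of Cd3g from -0.0118 to 1.19, of Cd2 from -0.90 to 0.16 and of Lck from -0.0525 to 1.06, and between spleen and PC in NFKBIE-wt that of Cd3d from -0.0717 to 0.59 and of Zap70 from -0.64 to 0.32. Of 1178 values of single genes under an alternative, 1073 kept direction and call, 76 lost a call, 12 gained one and 17 changed sign. The cause was not tested.

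Replicate numbers did not pair NFKBIE-ko with NFKBIE-wt libraries (correlation of the residuals of libraries with the same number from -0.246 to 0.149). The genotypes had separate recipients, so that no such pairing could be there in the spleen or PC. Between spleen and PC of 1 genotype, where mice are shared, the correlation ran from -0.144 to 0.0864. Over all genes DESeq2 called 721 in the spleen against 365 by edgeR, 153 against 4 in culture, and 460 against 257, 606 against 48 and 980 against 426 for the differences of effects between spleen and PC, spleen and culture, and PC and culture. Thy1 and Cd3e did not reach the depth needed for a test between genotypes in culture.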

Other observations

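The summed log2 CPM of Cd3d, Cd3e and Cd3g was followed most closely over the 16 spleen and PC libraries, as deviations from the group means, by Ccl5 (Pearson r 0.942), Osbpl3 (0.941), Trbc2 (0.938), Plscr3 (0.924), Gzmk (0.920), Ms4a4b (0.914), Tpst2 (0.913) and Dok2 (0.910), among 11608 genes. Ccl5 encodes a chemokine and Gzmk a granzyme of T and NK cells. With NFKBIE-wt spleen replicate 4 left out, Trbc2 was first (0.926), Ccl5 sixth (0.876) and Osbpl3 seventh (0.867), and the other 5 lay between 0.787 and 0.824. The libraries share depth and scaling, and r is given as a description.

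Among the members, over the same 16 libraries Cd3e went most closely with Cd247 (r 0.89), Thy1 (0.87) and Cd2 (0.83), and Cd3g and Lck went against it (-0.33 and -0.64). Without NFKBIE-wt spleen replicate 4 these were 0.75, 0.64, 0.49, 0.29 and -0.10, and Zap70 went from 0.70 to -0.24 and Tcf7 from 0.43 to -0.42, so that these values depended on that library.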
